A study of Mus musculus with 4 samples.

Results

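The Ly6 genes Ly6a, Ly6c1, Ly6c2 and Ly6e and the gene Thy1 were examined in liver group 1 innate lymphoid cells (ILC1s) by RNA-seq. The 5 genes were taken by symbol from the deposited expression table, which lists 18804 genes. Liver ILC1s are tissue-resident lymphocytes related to natural killer (NK) cells. The cells came from adult mice aged 5 to 8 weeks at homeostasis, of 2 genotypes with 2 libraries each, replicates 1 and 2 labelled Cd200r knockout and replicates 1 and 3 labelled WT. CD200R is an inhibitory receptor, and the series compares the 2 genotypes. The sources used here do not give the nature of the Cd200r allele, the mouse strain, the sorting markers or whether each library came from its own mouse or from a pool. Cd200r1, the targeted gene, was lower but not absent in the libraries labelled knockout, at 110.7 and 103.7 FPKM (a gene's fragments divided by its length in kilobases and by the library's total) against 161.5 and 173.3 FPKM in WT (log2 difference −0.64, SE 0.09, limma adjusted p = 0.00451). P-values reflect only how far these libraries differ from each other, which may be technical.

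Ly6 proteins are small, disulphide-rich proteins of the three-finger fold, held in the outer leaflet of the plasma membrane by a glycosylphosphatidylinositol (GPI) anchor. Many of their genes lie side by side in a cluster on mouse chromosome 15. Ly6a encodes Sca-1, a marker of haematopoietic stem cells that activated lymphocytes also carry. Ly6c1 and Ly6c2 encode the near-identical proteins recognised as Ly6C on inflammatory monocytes, circulating NK cells and memory T cells. Ly6e is broadly expressed in blood cells and is known as an interferon-induced gene that restricts coronavirus entry. Thy1 encodes CD90, a GPI-anchored protein of the immunoglobulin superfamily found on T cells and many innate lymphoid cells.

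In Cd200r knockout ILC1s, Ly6c2 and Ly6a rose more than 3-fold, whereas Ly6e and Thy1 lay at overlapping levels in the 2 genotypes. Ly6c2 averaged 174 FPKM in knockout and 45.3 FPKM in WT, and Ly6a averaged 38.8 and 11.9 FPKM. FPKM is meant to correct for gene length, but the sources used here do not give the lengths used. The order and shares of different genes depend on those lengths. Ly6c1 was the lowest member, at 1.12 ± 0.0746 FPKM in knockout and 0.358 ± 0.357 in WT (SD, n = 2). It fell below the mean of 1 FPKM over the 4 libraries that was required for a test. In these bulk libraries, a change in the number of cells of a type and a change in the RNA per cell cannot be told apart.

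The promoter sequences are shown because Ly6c2 and its neighbour Ly6a2 were both higher in knockout. A further reason is that the 2 Ly6c genes, whose transcripts are nearly the same, differed greatly in level. The windows compared are the 250 bases upstream of a start listed by RefSeq (GRCm38.p6). RefSeq lists 2 starts each for Ly6c1 and Ly6c2, of which the one farther upstream was used, and 1 for Ly6a2, a neighbouring Ly6 gene described below. The starts used were 75111971 (Ly6c2), 75135128 (Ly6a2) and 75048837 (Ly6c1) on chromosome 15. For Ly6c2 and Ly6c1 the RefSeq gene span reaches 95 and 83 bases further upstream than that start, and those bases are not printed. Shown 5′ to 3′ on the minus strand, that of the genes, are chr15:75112067-75112221 of Ly6c2, chr15:75135129-75135378 of Ly6a2 and chr15:75048921-75049087 of Ly6c1. Windows were found for 2 of the 5 members, Ly6c1 and Ly6c2. Capitals mark a Runx motif (TGTGGT, read here on the other strand as ACCACA) or a TATA motif (TATAAA).
Ly6c2: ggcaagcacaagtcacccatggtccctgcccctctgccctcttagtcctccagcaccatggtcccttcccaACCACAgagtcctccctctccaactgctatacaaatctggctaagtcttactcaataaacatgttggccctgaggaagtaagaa
Ly6a2: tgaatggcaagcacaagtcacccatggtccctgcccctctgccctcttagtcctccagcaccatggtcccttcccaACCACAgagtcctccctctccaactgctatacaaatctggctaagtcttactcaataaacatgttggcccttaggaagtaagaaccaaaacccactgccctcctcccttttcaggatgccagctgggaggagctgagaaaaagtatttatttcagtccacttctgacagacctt
Ly6c1: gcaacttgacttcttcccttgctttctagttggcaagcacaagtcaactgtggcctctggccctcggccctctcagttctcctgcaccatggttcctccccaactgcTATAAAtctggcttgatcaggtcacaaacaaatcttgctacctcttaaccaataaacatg

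The whole Ly6c2 and Ly6a2 windows were identical at 98.8% of aligned bases, with 242 identical bases, 3 mismatches and 10 gap bases. Those of Ly6c1 and Ly6c2 were identical at 80.7%, with 171 identical bases, 41 mismatches and 76 gap bases. The motifs were searched on both strands, and matches of different motifs could overlap. The Runx motif began 179 bases before the Ly6c2 start used and 174 bases before the Ly6a2 start, and these letters were not in the Ly6c1 window. The TATA motif began 143 bases before the Ly6c1 start used, and these letters were not in the other two windows. Of 32851 RefSeq windows of this length, 14.1% held the Runx motif and 12.4% the TATA motif. None of the 3 windows held the letters of the interferon-stimulated response element (GAAA, any 2 bases, GAAA), the gamma-activated site (TTCNNNGAA) or the T-box motif (GGTGTGA), which were in 2.98%, 7.02% and 3.33% of all windows. The window of the other Ly6c1 start, at 75048663, held the T-box letters 112 bases before that start and not the TATA letters, so the matches depend on the start used. A match is a description of letters and not a binding site.

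Ly6c2 (Entrez 100041546, GRCm38 chromosome 15, 75108161 to 75112066, minus strand, 4 exons) is the more abundant of the genes encoding Ly6C. It measured 141.9 and 206.1 FPKM in knockout replicates 1 and 2, and 48.79 and 41.72 FPKM in WT replicates 1 and 3. Both knockout libraries were high, both WT libraries were low, and the groups did not overlap. The ratio of the means was 3.85. On the log2(FPKM + 1) scale used for all tests, which understates the change of low genes, the difference was 1.90 (SE 0.16, limma adjusted p = 0.00021, n = 2 per group). Ranked among all genes of each library, Ly6c2 was above 97.0% and 98.0% of genes in knockout and above 91.0% and 89.8% in WT.

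Ly6a (Entrez 110454, chromosome 15, 74994877 to 74998031, minus strand, 3 exons) encodes Sca-1. It measured 33.38 and 44.2 FPKM in knockout and 8.699 and 15.03 FPKM in WT. The groups did not overlap, and the lower knockout library was above the higher WT library. The mean was 3.27-fold higher in knockout, a log2 difference of 1.66 (SE 0.22, limma adjusted p = 0.00318). This call was lost without the mean-variance trend (adjusted p = 0.0658), and without the filter on low values neither Ly6a (adjusted p = 0.329) nor Ly6c2 (adjusted p = 0.302) passed. The gene lies within the annotated span of the non-coding gene Gm28068. Gm28068 measured 0.346 and 0.323 FPKM in knockout and 0.356 and 0.173 FPKM in WT. The libraries do not mark the strand, and the part of Gm28068 reads in the Ly6a values was not tested.

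Ly6e (Entrez 17069, chromosome 15, 74955025 to 74959904, plus strand, 4 exons) was by far the most abundant member. It measured 973.3 and 922.3 FPKM in knockout and 950.3 and 933.5 FPKM in WT, above 99.6% to 99.7% of genes. The WT values lay between the knockout values. The log2 difference was 0.01 (SE 0.08, limma adjusted p = 0.971), and its sign changed under other scalings.

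Thy1 (Entrez 21838, chromosome 9, 44043384 to 44048579, plus strand, 4 exons) lies outside the Ly6 cluster. It measured 20.48 and 22.21 FPKM in knockout and 22.07 and 18.62 FPKM in WT, and the groups overlapped. The log2 difference was 0.07 (SE 0.14, limma adjusted p = 0.872). A p that misses the threshold does not show that the Ly6e or Thy1 levels were equal.

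Ly6c1 (Entrez 17067, chromosome 15, 75044018 to 75048920, minus strand, 4 exons) measured 1.069 and 1.174 FPKM in knockout and 0.1058 and 0.6102 FPKM in WT. At the depth inferred from the files these values stand for about 74 and 78 reads in knockout and 7 and 40 reads in WT. The exact 95% Poisson intervals were 58.1 to 92.9 and 61.7 to 97.4 reads in knockout, and 2.81 to 14.4 and 28.6 to 54.5 reads in WT. These intervals cover counting error only, since amplified reads without molecular identifiers are not independent molecules. Both knockout libraries were higher than both WT libraries, but the 2 WT libraries differed from each other by more than their intervals. The log2 difference was 0.67. With no filter on low values Ly6c1 did not pass (limma adjusted p = 0.458), but that fit called 0 of 18155 genes, so this is not particular to Ly6c1.

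**Figure D1:**
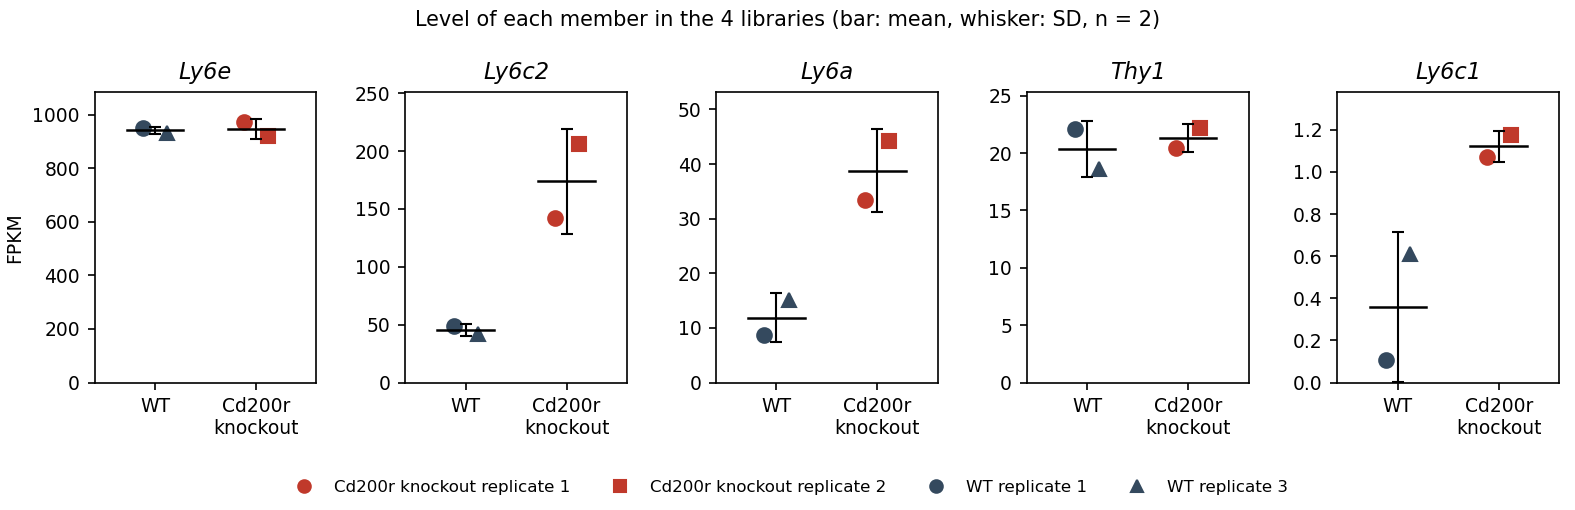
Level of each of the 5 members in FPKM (vertical axis, linear, from 0, a separate scale for each gene) in the WT and Cd200r knockout libraries. Points are single libraries, the horizontal bar is the group mean and the whisker the SD of 2 libraries. For Ly6c2, Ly6a and Ly6c1 both knockout points lie above both WT points, and for Ly6e and Thy1 the points overlap.

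Of the 4 members tested, 2 rose and 0 fell, where 3.33% of the 9476 genes tested passed in either direction, 2.40% as higher in knockout and 0.939% as lower. The median log2 difference of the 4 was 0.87, against 0.00 over all genes tested. An unadjusted p under 0.05 was reached by 1468 of the 9476 genes. The knockout and WT libraries were also fully separated for 46.0% of all tested genes, 24.3% with knockout higher, so the separation of 2 of the 4 members is near the background. With so few members, chosen by name and with earlier results known, these counts describe the genes and no more.

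The order of the levels differed between the genotypes at 1 place. In both WT libraries it ran from Ly6e through Ly6c2, Thy1 and Ly6a to Ly6c1. In both knockout libraries Ly6a stood above Thy1. The log2 ratio of Ly6a to Thy1 was 0.68 and 0.96 in the knockout libraries and −1.25 and −0.29 in the WT libraries. Its difference between the groups was 1.59 (exact two-sided permutation p = 0.333, the smallest that 2 against 2 libraries allow). Ly6e supplied 83.2% and 77.1% of the summed FPKM of the 5 genes in knockout and 92.3% and 92.5% in WT. Ly6c2 supplied 12.1% and 17.2% in knockout and 4.74% and 4.13% in WT.

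Ly6c2 and Ly6a moved by similar amounts. The log2 ratio of Ly6c2 to Ly6a was 2.06 and 2.2 in knockout and 2.36 and 1.41 in WT, a difference of 0.24 with overlapping groups (exact two-sided permutation p = 1.0). The 2 WT ratios lay further apart than that difference. As the smallest possible p is 0.333, the test could not have shown that the amounts differed. Their libraries were not ranked alike in WT, where Ly6c2 was higher in replicate 1 and Ly6a was higher in replicate 3. In knockout both were higher in replicate 2.

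Ly6c1 and Ly6c2 are close copies, so reads can match both. Their reference transcripts (GENCODE M21, 1 per gene) aligned with 802 identical bases, 20 mismatches and 22 gap bases, an identity of 97.6%. Of all 50-base windows, 36.7% of those of Ly6c1 and 33.0% of those of Ly6c2 also occurred in the transcript of another gene, mostly in each other. For 100-base windows the shares were 15.3% and 15.8%. Ly6a shared 8.05% of its 50-base windows with other Ly6 genes, 31 of them with Ly6i, 20 with Ly6a2 and 11 with Ly6c1. It shared 0 of its 100-base windows. Ly6c2 shared 3 of its 50-base windows with Ly6a2. Ly6e and Thy1 shared none of either length. The part of Ly6a or Ly6c2 reads in the lower values of Ly6i and Ly6a2, given below, was not tested. The sources used here do not say how reads matching several genes were counted, so the split between Ly6c1 and Ly6c2 is uncertain.

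The sum of the FPKM of Ly6c1 and Ly6c2 also depends on that counting, since the genes differ in exonic length (1677 and 2740 bases in GENCODE M21) and discarded reads would be missing from it. The sum was 143.0 and 207.3 FPKM in knockout and 48.9 and 42.33 FPKM in WT, a log2 difference of 1.90 (exact two-sided permutation p = 0.333). Ly6c1 made up 0.747% and 0.566% of the sum in knockout and 0.216% and 1.44% in WT. The share in knockout lay between the 2 WT shares. The log2 ratio of Ly6c2 to Ly6c1, after adding 1 FPKM to each, was 6.11 and 6.57 in knockout and 5.49 and 4.73 in WT. That difference of 1.23 (exact two-sided permutation p = 0.333) fell to 0.246 with a pseudocount of 0.1 FPKM (p = 1.0), since Ly6c1 is itself near 1 FPKM.

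Other genes of the Ly6 and urokinase receptor (uPAR) family share the three-finger fold. Of 39 listed, 15 were measured and 5 passed the filter, of which 2 rose and 0 fell. Over all genes tested 2.40% rose and 0.939% fell. The median log2 difference of the 5 was 0.59, against 0.00 over all genes tested.

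Ly6i, a Ly6 gene of the cluster (Entrez 57248, chromosome 15, 74979534 to 74983434), measured 3.888 and 3.592 FPKM in knockout and 0.352 and 0.666 FPKM in WT. These values stand for about 185 and 164 reads against 16 and 30. The groups did not overlap. The mean was 7.35-fold higher in knockout, with a log2 difference of 1.66 (SE 0.23, limma adjusted p = 0.00341). Its WT mean was 0.509 FPKM, so Ly6i passed the filter of 1 FPKM only through the knockout libraries. Like Ly6a, it lies within the span of Gm28068.

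Ly6a2 (Entrez 546643, chromosome 15, 75131292 to 75135128) measured 4.5 and 13.4 FPKM in knockout and 1.541 and 1.528 FPKM in WT. Knockout replicate 2 stood far above replicate 1, and both stood above WT. The log2 difference was 1.81 (SE 0.36, limma adjusted p = 0.0218), and it fell to 1.12 without knockout replicate 2 and rose to 2.51 without knockout replicate 1. The call was lost without the mean-variance trend (adjusted p = 0.139).

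The other 3 did not pass. Plaur, which encodes the urokinase receptor, measured 2.852 and 2.761 FPKM in knockout and 1.288 and 1.794 FPKM in WT (log2 difference 0.59, SE 0.22, limma adjusted p = 0.221). Ly6g5b, on chromosome 17 and overlapping Csnk2b, had a log2 difference of −0.03 (limma adjusted p = 0.966). Ly6d, known as a marker of early B-lineage and plasmacytoid dendritic cell progenitors, measured 26.54 and 12.35 FPKM in knockout and 23.35 and 23.36 FPKM in WT. Only knockout replicate 2 stood apart. The log2 difference of Ly6d was −0.35 (SE 0.26, limma adjusted p = 0.592), and it was −0.87 without knockout replicate 1 (adjusted p = 0.00511) and 0.18 without knockout replicate 2 (adjusted p = 0.695).

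**Figure D2:**
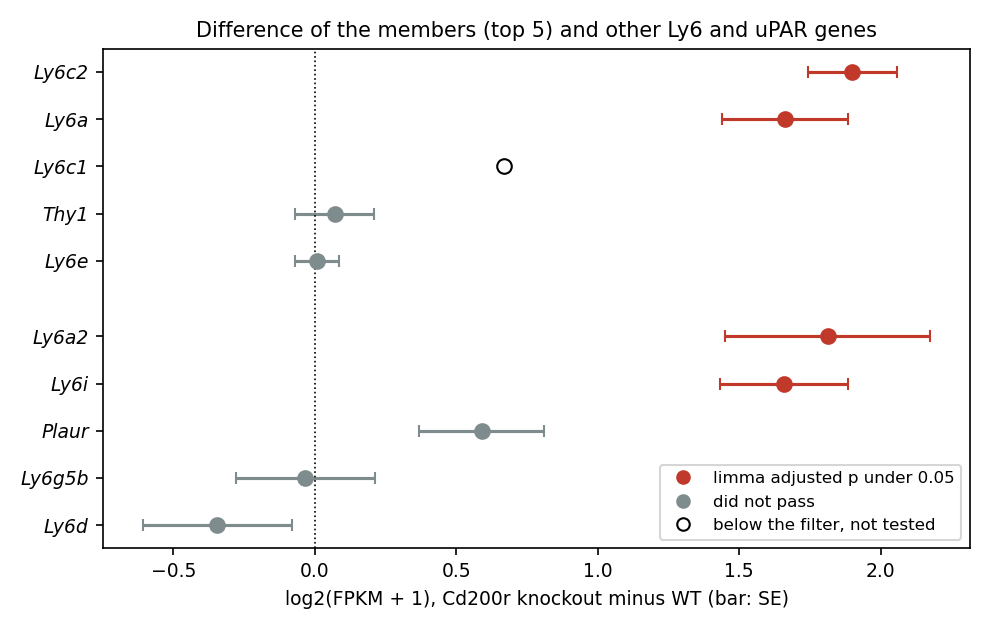
Log2(FPKM + 1) difference, Cd200r knockout minus WT (horizontal axis), of the 5 members and of the 5 other Ly6 and uPAR genes past the filter. Bars are the limma SE, red points passed at an adjusted p under 0.05, and the open point of Ly6c1 was below the filter and has no SE. Ly6c2, Ly6a, Ly6a2 and Ly6i lie between 1.66 and 1.90, apart from the others.

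Along the cluster on chromosome 15, from Lynx1 to Gpihbp1, 15 genes were measured and 7 passed the filter, of which 4 rose and 0 fell. Over all genes tested 2.40% rose and 0.939% fell. The 4 were Ly6i, Ly6a, Ly6c2 and Ly6a2, and their lower coordinates lay from −128.6 kb (Ly6i) to 23.1 kb (Ly6a2) of that of Ly6c2. Ly6a and Ly6c2 are the members already counted above, and Ly6i passed the filter only through knockout. As Ly6i and Ly6a2 share some 50-base windows with Ly6a, the 4 are not shown to be independent of each other. They were not an unbroken run, as Ly6c1, between Ly6a and Ly6c2, was below the filter. Gm28068 and Gm41348, the non-coding genes between Ly6e and Ly6c1, were below it too. Ly6e, the next tested gene beyond Ly6i at −153.1 kb, had the difference of 0.01 given above. Gm39556, the non-coding gene 19.6 kb from Ly6e on its other side, measured 1.723 and 1.559 FPKM in knockout and 2.369 and 1.9 FPKM in WT and did not pass (limma adjusted p = 0.659). Both genes nearest to Thy1, Gm39323 and Gm39325, reached at most 0.266 and 0.191 FPKM.

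**Figure D3:**
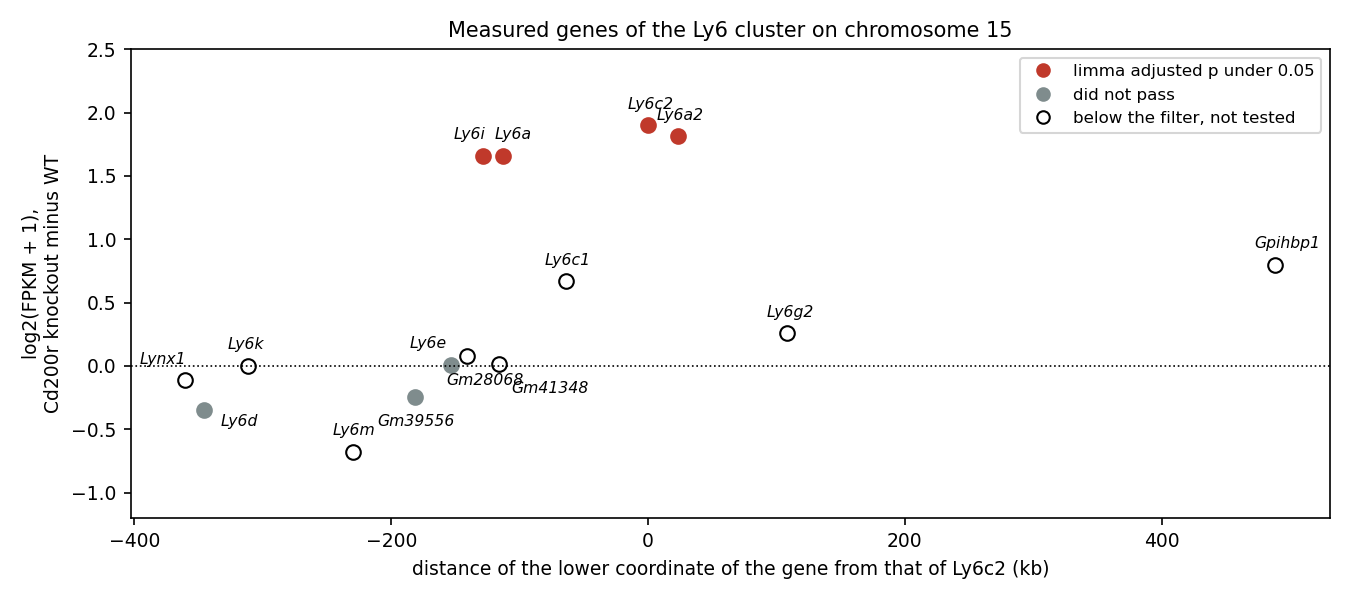
Log2(FPKM + 1) difference, Cd200r knockout minus WT (vertical axis), of the 15 measured genes of the chromosome 15 cluster by the distance of each gene's lower coordinate from that of Ly6c2 in kb (horizontal axis). Red points passed limma's test, grey points did not, and open points were below the filter. The 4 red points lie between −128.6 kb and 23.1 kb, with Ly6c1 as an open point between them at 0.67.

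All 5 members are GPI-anchored, and a list of enzymes that assemble and remodel the anchor was compared. Of its 30 genes 25 passed the filter, and limma called 0 as rising and 0 as falling, with a median log2 difference of 0.05. Over all genes tested 1468 of 9476 had an unadjusted p under 0.05, and of these 25 genes 1 did. That gene was Gpaa1, a subunit of the transamidase that attaches the anchor, at 54.23 and 51.57 FPKM in knockout and 67.65 and 65.41 FPKM in WT (−0.33, SE 0.10, adjusted p = 0.137). Without knockout replicate 1 the difference was 0.58 for Pigp and −1.2 for Pigo, and without knockout replicate 2 it was 0.14 and 0.02. For Pigo only knockout replicate 2 stood apart, at 2.55 FPKM against 7.255 in knockout replicate 1 and 7.052 and 7.236 in WT.

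Among 18 measured genes for other GPI-anchored proteins of lymphocytes, 11 passed the filter, 0 rose and 2 fell, where 0.939% of all genes tested fell. An unadjusted p under 0.05 was found for 5 of the 11, against 1468 of all 9476 genes tested. The median log2 difference was 0.27. Art2b, an ecto-ADP-ribosyltransferase, measured 24.03 and 20.14 FPKM in knockout and 42.67 and 38.84 FPKM in WT, a log2 difference of −0.86 (SE 0.13, limma adjusted p = 0.00577). Cd24a, a heavily glycosylated surface protein, measured 2.167 and 3.601 FPKM in knockout and 8.575 and 8.437 FPKM in WT, a difference of −1.32 (SE 0.22, limma adjusted p = 0.00952). Neither gene's groups overlapped, and both differed in the opposite direction to Ly6a and Ly6c2. Izumo1r (1.08, limma adjusted p = 0.0555) and Cd14 (1.08, limma adjusted p = 0.099) did not pass. When 1 library was left out, the difference of Izumo1r ranged from 0.84 to 1.31 and that of Cd14 from 0.6 to 1.56. Cd14 is also in the list of monocyte and macrophage markers given below.

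Ly6 genes are known to respond to interferon, and 35 of 36 measured interferon-induced genes passed the filter. Of these 3 rose and 0 fell, a share of 8.57% against 3.33% of all genes tested, with a median log2 difference of 0.11. An unadjusted p under 0.05 was found for 13 of the 35, against 1468 of all 9476 genes tested. Ifi27l2a, a small interferon-induced membrane protein gene, measured 26.16 and 27.5 FPKM in knockout and 12.75 and 11.01 FPKM in WT (1.11, SE 0.14, limma adjusted p = 0.00229). Usp18, which encodes a protease that removes the modifier ISG15, differed by 0.70 (adjusted p = 0.0216), and Oas1a, an RNA-sensing enzyme, by 0.66 (adjusted p = 0.0248). Socs1, an inhibitor of cytokine signalling, did not pass (0.35, adjusted p = 0.0723). Without knockout replicate 1 the count was 6 rising and 1 falling.

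Ly6C is also carried by circulating NK cells and monocytes, so markers of these and other cells are given beside the members. Over all genes tested, the background for each list, 2.40% rose, 0.939% fell and 1468 of 9476 had an unadjusted p under 0.05. The ILC1 markers had a summed level of 9452 to 10469 FPKM in knockout and 9990 to 10081 FPKM in WT, with 2 of 17 rising and 0 falling. Of the conventional NK cell markers 11 of the 17 past the filter rose and 0 fell, with 14 at an unadjusted p under 0.05. Their sum was 740 and 1224 FPKM in knockout and 507.5 and 503.1 FPKM in WT. Of that sum Klra9 alone was 307.9 and 322.4 against 256.4 and 254.6 FPKM, and Klra7 139.3 and 282.1 against 100.3 and 83.63 FPKM. Klf2 (log2 difference 1.87), Emb (1.42), Cma1 (3.53) and Cx3cr1 (1.89) had the smallest p of that list. The WT mean of Cx3cr1 was 0.539 FPKM, below the filter. The 6 that did not pass were Klra9, Itga2, Itgam, S1pr1, Irf8 and Prdm1. Among these, Itga2 differed by 0.09 (limma adjusted p = 0.899), Prdm1 by 0.08 (adjusted p = 0.905) and S1pr1 by 1.62 (adjusted p = 0.052).

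Of the monocyte and macrophage markers 8 of the 14 past the filter rose and 0 fell, with 13 at an unadjusted p under 0.05. Over all genes tested 2.40% rose and 1468 of 9476 had such an unadjusted p. The marker sums of this list follow. Their sums were 724.7 and 1049 FPKM in knockout and 302.1 and 284.1 FPKM in WT. Of these sums Lyz2 alone was 526.7 and 771.1 against 213.3 and 193.0 FPKM. C1qb (2.69), C1qc (2.76), Aif1 (2.56) and Lyz2 (1.65) had the smallest p. No marker of that list was at 0 in all 4 libraries, and Fcgr1, Marco, Timd4 and F13a1 were below the filter. Ccr2, the chemokine receptor of Ly6C-high monocytes, named after its values were seen, measured 57.03 and 61.47 FPKM in knockout and 46.57 and 50.74 in WT and did not pass (0.28, limma adjusted p = 0.244). Both summed lists and Ly6c2, Ly6a and Ly6a2 were highest in knockout replicate 2, then in knockout replicate 1, and lower in both WT libraries. Ly6i, the other Ly6 gene that rose, was higher in knockout replicate 1 than in replicate 2. The part of such cells in the levels of Ly6c2 and Ly6a was not tested.

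Endothelial cells carry Ly6a and Ly6c1. Of 14 measured endothelial markers 11 were below the filter. The 14 summed to 30.7 and 24.7 FPKM in knockout and 23.5 and 21.3 FPKM in WT. Of these sums Pecam1 alone was 17.51 and 13.33 against 20.72 and 18.63 FPKM, so the rest was higher in knockout. Of the 3 tested, only Fcgr2b passed (2.09, limma adjusted p = 0.00229), with a WT mean of 0.516 FPKM, below the filter. Pecam1 (−0.34, adjusted p = 0.346) and Eng (0.68, adjusted p = 0.206) did not. T cells carry Thy1. Of 11 T cell markers Cd6 rose and 0 fell, 7 had a positive log2 difference, and the median difference was 0.60. An unadjusted p under 0.05 was found for 7 of the 11, against 1468 of all 9476 genes tested. The T cell markers summed to 2149 and 2182 FPKM in knockout and 2388 and 2362 FPKM in WT, of which Cd3g alone was 1983 and 1950 against 2249 and 2238 FPKM. Without Cd3g the other 10 summed to 165.5 and 232.4 FPKM in knockout and 139.2 and 124.0 FPKM in WT. Of 8 erythroid markers tested 7 fell and 1, Car2, rose (0.40, limma adjusted p = 0.0412), with sums of 12744 and 14302 FPKM in knockout and 24902 and 27027 FPKM in WT. Of the other lists, 2 of 10 tested hepatocyte markers rose, with 5 at an unadjusted p under 0.05. Of 5 neutrophil markers 2 rose (Ngp and Camp) and 1 fell (Mmp9), with 5 at an unadjusted p under 0.05. The WT means of Ngp and Camp were 0.154 and 0.0428 FPKM, below the filter. S100a8 and S100a9 differed by 1.06 and 1.02 and did not pass. Mmp9, at 34.66 and 27.46 FPKM in knockout and 64.38 and 69.69 in WT, made up most of the WT neutrophil sums. Limma called 0 of 7 B and plasma cell, 0 of 3 plasmacytoid dendritic cell and 0 of 2 ILC2 and ILC3 markers. Of these lists 2, 1 and 1 markers had an unadjusted p under 0.05. When the values were rescaled without haemoglobin and mitochondrially encoded genes, Ly6c2 differed by 1.89 (limma adjusted p = 0.000226) and Ly6a by 1.68 (adjusted p = 0.00383).

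**Figure D4:**
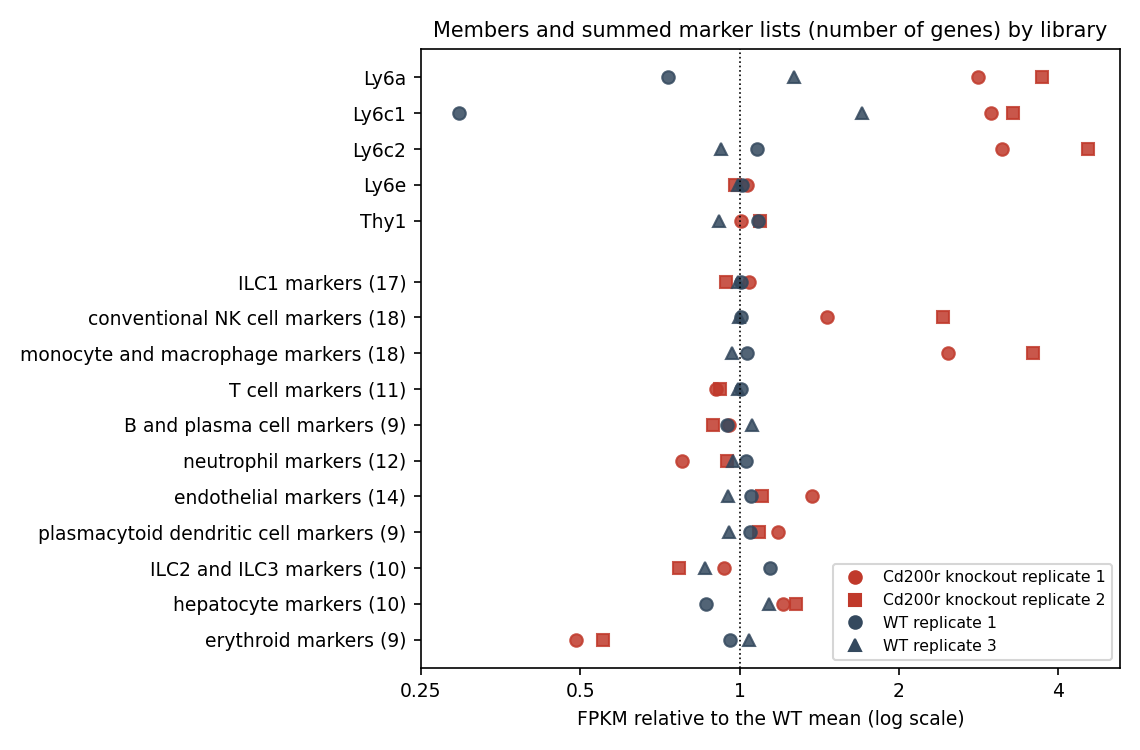
FPKM of each member and summed FPKM of each marker list in single libraries, relative to the WT mean (horizontal log axis, 1 marks the WT mean, number of genes in brackets). Red points are Cd200r knockout and dark points WT. Sums are weighted to their highest genes, such as Lyz2 for monocytes and macrophages, Klra9 for conventional NK cells and Cd3g for T cells. The endothelial sum is weighted to Pecam1 and the WT neutrophil sum to Mmp9, which both measured lower in knockout. Ly6a, Ly6c1 and Ly6c2 in knockout lie between 2.81 and 4.56 times the WT mean, the monocyte and macrophage sum at 2.47 and 3.58, the conventional NK cell sum at 1.47 and 2.42, and Ly6e and Thy1 near 1.

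The genes with the pattern most like each member were found by the root mean square distance between log2(FPKM + 1) profiles centred on their own mean, over the 4 libraries, among the 6095 genes whose mean reached 5 FPKM. For Ly6c2 they were Klf2 (distance 0.095), a transcription factor of recirculating lymphocytes, and Ctss (0.116), the protease cathepsin S. For Ly6a they were Cdca8 (0.127), a chromosomal passenger protein of mitosis, and Nr4a1 (0.168), an early response gene of antigen receptor signalling. For Ly6e they were Cox8a (0.003) and Ints14 (0.009), and for Thy1 Mrps23 (0.008) and Papss1 (0.011). With 4 libraries, likeness of this kind follows the difference between the groups for Ly6c2 and Ly6a and small differences among libraries for Ly6e and Thy1.

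Depth was similar in all 4 libraries, since by the values themselves each FPKM stood for between 39.0 and 41.2 reads per kilobase.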

How the data were processed

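RNA-seq libraries of liver ILC1s were made, per the labels' protocols, from TRIzol-extracted RNA by full-length amplification with a single-cell kit and a transposase-based library kit, which does not mark the strand. Per the submitters' processing notes, fastp, HISAT2, HTSeq, DESeq2 and R 3.2.0 were used on build mm10, with no role or order given. The deposited table holds FPKM, one value per gene and library. The sources used here do not state a scaling between libraries. The table holds no counts, so no count test was run. RefSeq's GRCm38.p6 gene table held 18290 (97.3%) of the identifiers.

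The members and lists were chosen with earlier results of these data known. The 9476 genes whose mean over the 4 libraries reached 1 FPKM were compared on log2(FPKM + 1) with limma 3.58.1 in R 4.3.3, two-sided, with a mean-variance trend and no covariate. A gene below 1 FPKM in 1 genotype could pass this filter through the other. P-values were adjusted by Benjamini-Hochberg over all 9476, with a threshold of 0.05. The procedure was first tested on simulated data. Ratios and sums within a library were compared by exact permutation. Errors of FPKM are SDs of 2 libraries. Depth was inferred from the step between low values, using GENCODE M21 gene lengths. Between 20.9% and 21.5% of low values were then within 0.05 of a whole read, so read numbers are approximate. Sequences were compared with Biopython 1.88.

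Named genes were the 5 members, the wider Ly6 and uPAR genes past the filter, up to 4 genes with the smallest p in each other list, the 2 nearest patterns to each tested member, Cd200r1 and the neighbours of the members. Some that this rule names are not described. The 12 alternatives were pseudocounts of 0.1 and 5, no filter, a filter at 5 FPKM, 3 other scalings, no trend, and leaving out each of the 4 libraries.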

Additional observations from a re-analysis of the deposited data

How the results depend on the processing

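No paired analysis was made, as the labels do not pair libraries of the 2 genotypes. Under the 12 alternatives, the log2 difference of Ly6c2 stayed between 1.63 and 2.17 and that of Ly6a between 1.30 and 2.02, each positive. Over the 4 fits that left out 1 library, which assume that a lone library varies like the other group, Ly6c2 gave 1.63 to 2.17, Ly6a 1.30 to 2.02, Ly6c1 0.397 to 0.94, Ly6e −0.03 to 0.047 and Thy1 −0.047 to 0.187. Without the filter 18155 genes were tested and limma called 0, with 1898 at an unadjusted p under 0.05. The difference of Ly6a (1.66, adjusted p = 0.329), Ly6c2 (1.90, adjusted p = 0.302), Ly6i (1.66, adjusted p = 0.302) and Ly6a2 (1.81, adjusted p = 0.412) was then no longer past the threshold. Without the mean-variance trend 70 genes were called in place of 316, and Ly6a (1.66, adjusted p = 0.0658) and Ly6a2 (1.81, adjusted p = 0.139) were lost. The causes were not tested.

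Leaving out 1 library gave 256 to 574 genes, with 574 without knockout replicate 1. The difference of Ly6c1 was 1.68 and 0.19 with pseudocounts of 0.1 and 5, 0.96 as TPM and 0.98 rescaled without haemoglobin and mitochondrial genes. Ly6e was negative under quantile normalization (−0.022), that rescaling (−0.018), without knockout replicate 1 (−0.03) and without WT replicate 3 (−0.004), and Thy1 was negative without WT replicate 3 (−0.047). These values lie within 1 SE of 0. In fits added after the data were seen, the wider Ly6 list gave 2 rising genes without any 1 library, the conventional NK cell list 10 to 13 and the monocyte and macrophage list 7 to 11. With 2 libraries a group, small differences such as those of Ly6e and Thy1 could not be resolved, and Ly6c1, below the filter, has no test of its own.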

Other observations

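The 10 other measured genes of the Ly6 and uPAR list were below the filter and were not tested. Ly6m, a gene of the same cluster, measured 0.451 and 0.121 FPKM in knockout and 0.943 and 1.14 FPKM in WT. Both knockout values of Ly6m were lower, the opposite direction to Ly6a and Ly6c2. Gpihbp1, which carries lipoprotein lipase on capillary endothelium, measured 2.297 FPKM in knockout replicate 1 and was listed at 0 in knockout replicate 2 and in WT replicate 1. Cd59a and Cd59b, inhibitors of the complement attack complex, reached at most 0.354 and 0.0614 FPKM.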
